A study of Mus musculus with 23 samples.

Results

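The NF-kB subunits and feedback targets described here are 10 genes of the 54354 in the count table: Nfkb1, Nfkb2, Rela, Relb, Nfkbia, Nfkbiz, Tnfaip3, Birc3, Tnf and Icam1. They were taken by gene symbol alone, and each matched 1 row. Chemokine targets of the pathway were not among them. The libraries came from mouse colon tumours started by injecting AKP-tdT organoids, cultured tumour epithelium with a tdTomato label, into the colon. All 23 libraries carry the Basp1-eGFP-DTR reporter, in which Basp1 drives GFP together with a receptor for diphtheria toxin, and by the labels differ only in the sorted population: 12 are GFP-negative and 11 are GFP-positive. The labels give no diet, animal, age, sex or host strain, although the series title carries the letters HFD. The extraction protocol names organoids and the design text names digested tumours as the RNA source, and the labels do not settle which holds. Whether the sort also required tdTomato is not given in the sources used here, so no stated gate removes host cells.

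NF-kB is a family of dimeric transcription factors. Rela, Relb and Rel carry transactivation domains, whereas Nfkb1 and Nfkb2 encode the precursors of p50 and p52. In resting cells inhibitor proteins of the I-kB class hold the dimers in the cytoplasm, and signals from TNF, interleukin-1 or Toll-like receptors release them through the I-kB kinase complex. Many of the induced genes shut the pathway down again, so their transcripts are often used as a readout of it. In the intestine the pathway is known for linking inflammation to tumour growth in both epithelial and myeloid cells.

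Promoter sequence from RefSeq (GRCm38.p6) was at hand for 7 of the 10 genes, the others being Nfkb1, Relb and Nfkbiz. The kappaB consensus, a 10-base motif, was searched on both strands from 250 bases before to 50 bases after each start. It was found in 2779 of 32851 promoters (8.46%) and in 5 of the 10 promoters held for the 7 genes. These belonged to 3 genes, namely Nfkbia, Tnfaip3 and Nfkb2, and a further Tnfaip3 promoter held no match. The first 2 of the sequences shown are those of the feedback inhibitors, with the match in capitals, and the last is that of Icam1, the gene with the lowest fold change in the comparison of sorted populations. Each is the 100 bases before the start, written 5′ to 3′ along the gene.
Nfkbia, chr12:55492648-55492747, minus strand: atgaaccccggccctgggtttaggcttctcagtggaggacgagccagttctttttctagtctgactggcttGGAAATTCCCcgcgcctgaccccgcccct
Tnfaip3, chr10:19015411-19015510, minus strand: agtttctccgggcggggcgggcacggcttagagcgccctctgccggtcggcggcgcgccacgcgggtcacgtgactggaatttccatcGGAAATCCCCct
Icam1, chr9:21015840-21015939, plus strand: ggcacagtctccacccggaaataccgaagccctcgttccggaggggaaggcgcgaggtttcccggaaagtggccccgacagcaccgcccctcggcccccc
The Nfkbia match lay 29 to 20 bases and the Tnfaip3 match 12 to 3 bases before the start, both reading as the consensus on the antisense strand. The Tnfaip3 stretch lies inside the longer GENCODE gene model, outside its exons. The Tnfaip3 window held a further site, 125 to 116 bases before the start, that matched on both strands. In Nfkb2 the 30 bases around the match at 39 to 30 bases before the start were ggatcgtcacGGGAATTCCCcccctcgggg. The windows of Icam1, Tnf, Rela and Birc3 did not hold these letters, which says nothing about binding there. A match is a description of the sequence, and no binding was measured.

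Depth was low and uneven, from 25458 to 2304316 counts in GFP-negative libraries (median 144334.5) and from 37125 to 4238877 in GFP-positive libraries (median 1418140). A count of 0 is therefore weak evidence: 3 counts, taken as the floor, correspond to 52.0 CPM (counts per 1000000 counts of the library) in GFP-negative 4, 118 CPM in GFP-negative 5 and 80.8 CPM in GFP-positive 4. All zeros among the 10 genes fell in these 3 libraries. Library numbers in the labels fall in 2 runs, here called library set 1, with 11 libraries (6 GFP-negative, 5 GFP-positive), and library set 2, with 6 of each. Most libraries share a leading identifier with one of the other population. Basp1 itself, whose reporter defined the sort, ran from 0 to 83.8 CPM (median 27.7, n = 12) in GFP-negative and from 13.3 to 107.7 CPM (median 51.3, n = 11) in GFP-positive libraries (log2 fold change 0.63, edgeR adjusted p = 0.997). Epithelial markers were high in every library (8 of 8 genes detected, summed level 2364 to 7232 CPM). Fibroblast markers (8 of 8 detected) summed to 148 to 8709.7 CPM (median 1749) in GFP-negative libraries. In GFP-positive libraries they summed to 0 to 2090 CPM (median 204). Macrophage markers (16 of 16 detected) summed to 534 to 9137 CPM in GFP-negative and 201 to 38142 CPM in GFP-positive libraries, the top value being GFP-positive 3 and the next highest GFP-positive library having 1485 CPM. Cd3e, Cd3d, Cd3g and Nkg7 of the T and NK cell list, and Cd79a and Ms4a1 of the B cell list, were at 0 in all 23 libraries. Trbc1, a T cell receptor gene, was detected in every library (median 149 CPM in GFP-negative and 272 CPM in GFP-positive libraries), and Trac, Trbc2, Gzma, Cd79b and Jchain had counts in some. The T and NK cell list summed to 52.0 to 775 CPM over all libraries.

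Per kilobase of exon (GENCODE M21, mm10), Nfkbia was by far the most abundant of the 10 genes, with a median of 181 CPM per kb over the 23 libraries. Nfkbiz (27.6) and Tnf (25.3) followed, then Rela (15.3) and Icam1 (9.65). Nfkb2 (7.38), Relb (7.37), Tnfaip3 (5.57), Nfkb1 (4.14) and Birc3 (3.44 CPM per kb) closed the order. The length used merges all annotated exons of a gene, 12.1 kb for Nfkb1, and the order depends on it. Before division by length the median of Nfkb1 was 49.9 CPM, above that of Rela (47.1 CPM). Below Nfkbia the neighbours in this order were closer to each other than the range each gene covered among libraries.

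Among the subunits, Nfkb1 (ENSMUSG00000028163, chr3:135584655-135691547, minus strand), which encodes p105 and its product p50, ranged over 17.3 to 238 CPM (median 48.3, n = 12) in GFP-negative libraries. In GFP-positive libraries it ranged over 22.3 to 173 CPM (median 53.9, n = 11). The medians were close, and the highest values belonged to single libraries of either population: GFP-negative 1 (238), GFP-negative 12 (201) and GFP-positive 3 (173 CPM). Nfkb2 (ENSMUSG00000025225, chr19:46304320-46312385, plus strand), the p100/p52 subunit of the non-canonical arm, ranged over 0 to 73.0 CPM (median 27.5, n = 12) in GFP-negative and 16.3 to 103 CPM (median 37.1, n = 11) in GFP-positive libraries. 10 of 11 GFP-positive libraries lay at or above the GFP-negative median, yet the groups overlapped, and 1 GFP-positive library lay above all GFP-negative ones. Nfkb2 had the second-largest positive fold change of the 10 genes (log2 fold change 0.44, 95% interval -0.25 to 1.13, edgeR adjusted p = 0.997).

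Rela (ENSMUSG00000024927, chr19:5637483-5648130, plus strand), the p65 subunit of the canonical dimer, ranged over 0 to 115 CPM (median 54.0, n = 12) in GFP-negative and 26.9 to 146 CPM (median 46.5, n = 11) in GFP-positive libraries. Apart from GFP-negative 4 and 5, which had 0 counts, and 2 high libraries, GFP-positive 9 (146) and GFP-negative 12 (115 CPM), Rela stayed between 26.9 and 78.4 CPM. Relb (ENSMUSG00000002983, chr7:19606217-19629438, minus strand), the partner of p52, ranged over 0 to 61.2 CPM (median 28.1, n = 12) in GFP-negative and 0 to 126 CPM (median 28.8, n = 11) in GFP-positive libraries, so the medians were nearly equal. GFP-positive 9 held the highest level of Nfkb2 (103), Rela (146) and Relb (126 CPM) at a depth of 857615 counts. Its macrophage marker sum of 201 CPM was the lowest of all libraries.

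**Figure D1:**
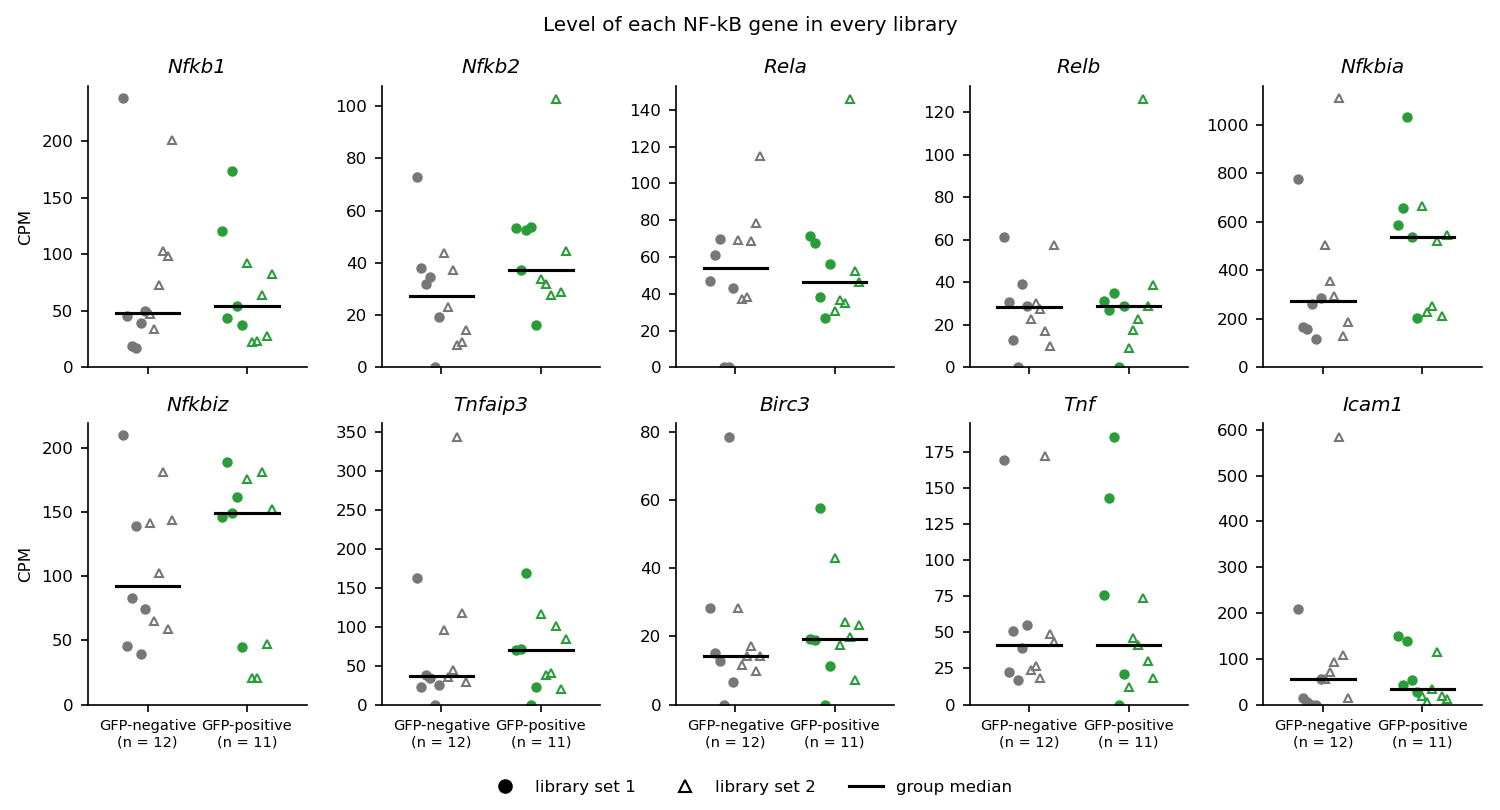
Level of each of the 10 genes in CPM (vertical axes, linear, a separate scale for each gene) in the 12 GFP-negative (gray) and 11 GFP-positive (green) libraries. Filled circles are library set 1, open triangles library set 2 and bars the group medians. The groups overlap for all 10 genes, and single libraries such as GFP-negative 10 for Icam1 (585 CPM) and GFP-positive 9 for Rela (146 CPM) lie far from their group.

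Of the inhibitors, Nfkbia (ENSMUSG00000021025, chr12:55489410-55492647, minus strand) encodes I-kB alpha, which is itself induced by NF-kB and returns the dimers to the cytoplasm. It ranged over 118 to 1110.05 CPM (median 272, n = 12) in GFP-negative libraries and 201 to 1033 CPM (median 539, n = 11) in GFP-positive libraries. 7 of 11 GFP-positive libraries lay above the GFP-negative median and 5 GFP-negative libraries lay below every GFP-positive one, but the highest single value, 1110.05 CPM, was that of GFP-negative 10. The log2 fold change was 0.41 (95% interval -0.39 to 1.21, edgeR adjusted p = 0.997). Nfkbiz (ENSMUSG00000035356, chr16:55811375-55838899, minus strand) encodes the nuclear inhibitor I-kB zeta, which acts as a coactivator at a subset of targets. It ranged over 39.3 to 209 CPM (median 92.5, n = 12) in GFP-negative and 20.7 to 189 CPM (median 149, n = 11) in GFP-positive libraries. The GFP-positive values of Nfkbiz fell into a high and a low group: 7 libraries lay between 146 and 189 CPM, and GFP-positive 5, 7, 8 and 10 lay between 20.7 and 47.1 CPM.

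Tnfaip3 (ENSMUSG00000019850, chr10:19000910-19015657, minus strand) encodes A20, the ubiquitin-editing enzyme that ends signalling upstream of the I-kB kinases. It ranged over 0 to 344 CPM (median 36.5, n = 12) in GFP-negative and 0 to 169 CPM (median 70.1, n = 11) in GFP-positive libraries. The GFP-positive median was higher, while the 2 top GFP-negative libraries, GFP-negative 10 (344) and GFP-negative 1 (162 CPM), were far above it, and the log2 fold change was -0.18 (95% interval -1.20 to 0.83). Birc3 (ENSMUSG00000032000, chr9:7848699-7873186, minus strand) encodes cIAP2, a ubiquitin ligase of the TNF receptor complex. It was the least abundant of the 10 per kilobase, with 0 to 78.6 CPM (median 14.3, n = 12) in GFP-negative and 0 to 57.6 CPM (median 19.1, n = 11) in GFP-positive libraries. The GFP-negative maximum was GFP-negative 5, where 78.6 CPM stood for 2 counts. Birc3 had the largest positive log2 fold change of the 10 genes, 0.53 (95% interval -0.30 to 1.35, edgeR adjusted p = 0.997).

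Tnf (ENSMUSG00000024401, chr17:35199381-35202007, minus strand), the cytokine that both triggers the pathway and is transcribed by it, ranged over 17.3 to 172 CPM (median 41.2, n = 12) in GFP-negative and 0 to 186 CPM (median 41.5, n = 11) in GFP-positive libraries. The medians were nearly equal. The 4 highest libraries were split between the populations: GFP-positive 3 (186), GFP-negative 10 (172), GFP-negative 1 (169) and GFP-positive 2 (143 CPM). Of these GFP-positive 2 had a macrophage marker sum of only 292 CPM, against 7331 to 38142 CPM in the other 3. The T and NK cell marker sum of GFP-positive 2, 775 CPM, was the highest of all libraries. The part of either cell type in the Tnf values was not tested.

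Icam1 (ENSMUSG00000037405, chr9:21015985-21028817, plus strand) encodes the adhesion molecule that binds leukocyte integrins and is present on endothelium, leukocytes and inflamed epithelium. It had the widest range relative to its median of the 10 genes, with 0 to 585 CPM (median 56.1, n = 12) in GFP-negative and 6.38 to 151 CPM (median 34.6, n = 11) in GFP-positive libraries. GFP-negative 10 stood far above the rest, with 585 CPM from 68 counts, and GFP-negative 1 followed with 209 CPM. 8 of 11 GFP-positive libraries lay below the GFP-negative median, and the groups overlapped. The log2 fold change of -0.87 (95% interval -2.25 to 0.51, edgeR adjusted p = 0.997) was the lowest of the 10. Without GFP-negative 10 it was -0.25.

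Whether the GFP-positive and GFP-negative sorted populations, which may hold host cells, differ in these transcripts was asked first over all libraries. All 10 genes passed the low-count filter and 0 of 10 passed edgeR's quasi-likelihood test at a Benjamini-Hochberg adjusted p of 0.05. None of the 10 reached an unadjusted p of 0.05 either, and 0 of 10 passed in DESeq2. The background was small: 1 of 6621 genes tested was called (0.0151%), the fibroblast gene Fbln1, which was lower in GFP-positive libraries, while 328 genes had an unadjusted p under 0.05. DESeq2 called 57 of 11326 genes (0.503%). 7 of the 10 fold changes were positive with a median of 0.14 on the log2 scale, beside a median of 0.07 and 58.5% positive over all genes tested. Leaving out GFP-positive 3, the library with the high macrophage sum, gave log2 fold changes of -1.17 for Icam1, -0.54 for Nfkb1, -0.46 for Tnfaip3, -0.20 for Tnf and 0.19 for Nfkbia, each lower than with it, and 0 of 10 were called, beside 16 of 6619 genes. The intervals were wide. For Rela (-0.54 to 0.73) and Nfkbiz (-0.68 to 0.79) they left room for moderate differences, and for Icam1 (-2.25 to 0.51) for large ones. Differences within these bounds were not excluded here. In bulk samples such as these, fewer cells of a type and less RNA per cell cannot be told apart. No label ties a library to an animal. The p-values therefore speak of the spread among libraries, some of which may be technical.

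**Figure D2:**
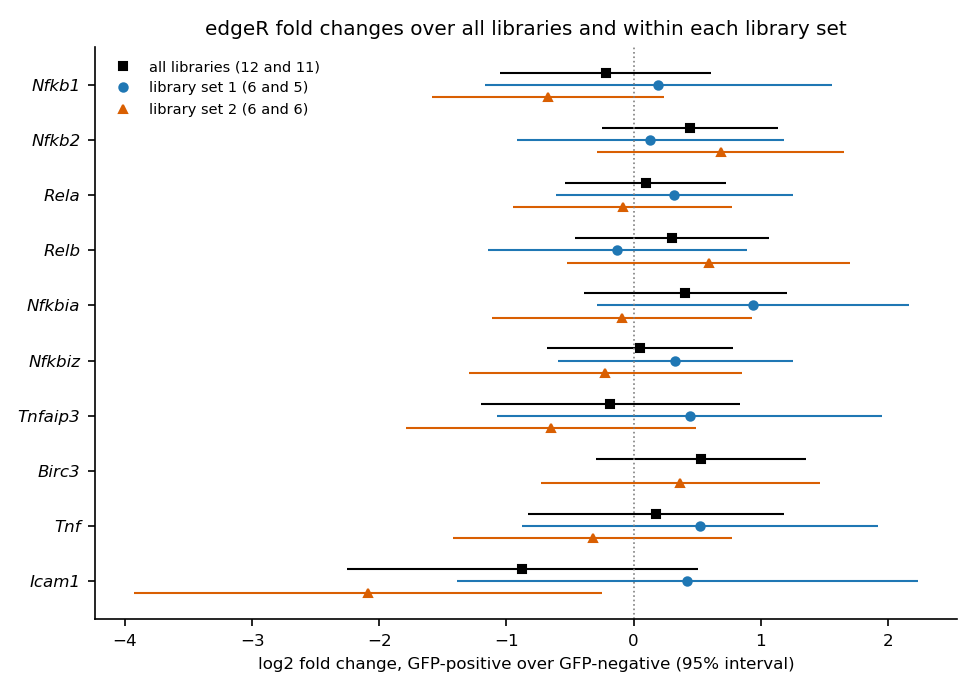
Log2 fold change of each gene, GFP-positive over GFP-negative (horizontal axis), with its 95% interval from edgeR, over all libraries (black squares, 12 and 11), in library set 1 (blue circles, 6 and 5) and in library set 2 (orange triangles, 6 and 6). Every interval spans 0 except that of Icam1 in library set 2 (-3.93 to -0.25), and Birc3 was below the filter in library set 1.

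The 2 library sets were then fitted separately. In library set 1, 9 of the 10 genes passed the filter and 8 of those 9 fold changes were positive, led by Nfkbia (0.94, 95% interval -0.29 to 2.17). Their median was 0.33, beside a median of 0.05 and 54.11% positive over all genes tested in that set. 0 of 9 were called by edgeR or DESeq2, beside 0 of 5256 genes tested (0%) in edgeR, where 284 genes had an unadjusted p under 0.05 and none of the 9 did. DESeq2 called 9 of 7992 genes (0.113%). In this set GFP-negative 1 held the highest GFP-negative value of 8 genes, all but Rela and Birc3. Without it the log2 fold changes of library set 1 rose to 1.56 for Nfkbia, 1.69 for Icam1, 1.58 for Tnfaip3 and 1.34 for Nfkb1, and still none was called (smallest edgeR adjusted p = 0.287). That library also had the highest macrophage marker sum of the GFP-negative libraries, 9137 CPM, and GFP-positive 3 of the same set had 38142 CPM. 10 of the 10 macrophage markers tested in library set 1 had positive fold changes (median 1.57), 0 of them called. The median macrophage marker sum of this set went the other way, at 1262 CPM in GFP-negative and 485 CPM in GFP-positive libraries. Without GFP-positive 3 the log2 fold changes of this set were 0.54 for Nfkbia, 0.04 for Icam1, 0.0038 for Tnf, -0.07 for Nfkb2, -0.28 for Tnfaip3 and -0.38 for Nfkb1, so that Nfkb2, Tnfaip3 and Nfkb1 turned negative. A list of 12 early genes that tissue digestion can induce also had 12 of 12 positive fold changes in this set (median 0.58). The part of macrophages and of digestion in the values was not tested. Birc3, below the filter, differed by -0.02 in mean log2(CPM + 1) between the populations of library set 1 (exact permutation test, two-sided, p = 1, n = 6 and 5). That value rests on GFP-negative 5, with 2 counts, and on libraries at 0. Fits in which Birc3 was tested gave log2 fold changes of 0.56 in DESeq2, 0.77 without the filter, 0.95 over libraries of at least 100000 counts and 0.70 to 0.85 in the 4 fits that left out 1 library, none called.

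In library set 2 only 3 of 10 fold changes were positive: Nfkb2 (0.69, 95% interval -0.28 to 1.66), Relb (0.59) and Birc3 (0.37). Without a block by identifier, edgeR called 0 of 10, beside 89 of 6952 genes tested (1.28%), 478 having an unadjusted p under 0.05. DESeq2 also called 0 of 10, beside 284 of 11938 (2.38%). Nfkb1 (-0.67) and Tnfaip3 (-0.65) had negative fold changes whose intervals reached past 0. The positive values of Nfkb2 and Relb rested in part on GFP-positive 9: without it they were 0.29 and -0.11.

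Icam1 was the one gene of the 10 with an unadjusted p under 0.05 in the fit of library set 2 without a block. Its 6 GFP-negative libraries ranged over 14.4 to 585 CPM (median 82.1, n = 6) and its 6 GFP-positive libraries over 6.38 to 114 CPM (median 18.1, n = 6). 5 of the 6 GFP-positive libraries lay below the GFP-negative median, 1 GFP-negative library lay above all GFP-positive ones, and the groups overlapped through GFP-negative 12 (14.4 CPM from 1 count) and GFP-positive 9 (114 CPM). This gave a log2 fold change of -2.09 with an SE of 0.84 (95% interval -3.93 to -0.25, unadjusted p = 0.0296), and edgeR's adjusted p of 0.599 did not pass. Without the low-count filter, where 375 of 20824 genes were called (1.8%), Icam1 did pass (log2 fold change -1.87, edgeR adjusted p = 0.0463). It also passed with the leading identifier as a block in the fit (log2 fold change -2.04, edgeR adjusted p = 0.000416). That fit called 140 of 6952 genes, and the labels do not say what an identifier stands for. In the filtered fit without a block, the fold change was -1.06 without GFP-negative 10 and -2.89 without GFP-positive 9. The difference between the sets was itself fitted as an interaction, in which 0 of the 10 genes and 0 of 6621 genes in all (0%) were called. 424 genes, none of the 10 among them, had an unadjusted p under 0.05 there. Icam1 had the lowest interaction term of the 10, -2.57 (95% interval -5.20 to 0.05, edgeR adjusted p = 0.762), so a difference between the sets was not shown.

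Macrophage, fibroblast, and smooth muscle and pericyte markers were also lower in GFP-positive libraries of set 2. Macrophage markers summed to 2931 to 7775 CPM in GFP-negative and 201 to 1159 CPM in GFP-positive libraries, without overlap, and 10 of the 12 testable genes of that list were called lower. Fibroblast markers summed to 1107 to 8709.7 CPM and 168 to 945 CPM, and 4 of 6 testable genes were called lower. Smooth muscle and pericyte markers summed to 202 to 701 CPM and 17.5 to 165 CPM, also without overlap. Of their 4 testable genes 0 were called, all 4 having negative fold changes. Endothelial markers summed to 0 to 482 CPM and 41.5 to 139 CPM, with 2 testable genes, neither called, and their highest sum was in GFP-negative 10, the library with the highest Icam1. Neutrophil markers summed to 189 to 771 CPM and 188 to 603 CPM, and 0 of 4 testable genes were called. T and NK cell markers summed to 98.0 to 471 CPM (median 155) and 124 to 507 CPM (median 234), with 1 testable gene, not called. The part of these cells in the Icam1 values was not tested.

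The library identifiers allowed a comparison within possible common sources, and 10 identifiers held both populations. Over them 0 of the 10 genes had p under 0.05 in an exact two-sided sign-flip test on log2(CPM + 1), which could go down to 0.00195. The same test over 6609 genes, those tested by edgeR whose symbol had 1 row, gave p under 0.05 for 415 (6.28%). Nfkb2 was higher in the GFP-positive library of 6 of 10 identifiers (mean log2 difference 0.92 ± 1.57, SD, exact p = 0.107), and Nfkbia of 7 of 10 (0.48 ± 0.96, SD, exact p = 0.143). Nfkb1, Relb, Tnf and Icam1 were each lower in 7 of 10. For Icam1 the mean difference was -0.28 ± 2.49 (SD, exact p = 0.754). The identifier whose libraries all held under 100000 counts alone gave a difference of 5.78, from GFP-negative zeros.

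Restricted to the 6 identifiers of library set 2, a choice made after the data were seen, Icam1 was lower in the GFP-positive library of 6 of 6. The level went from 56.7 CPM in the GFP-negative to 18.4 CPM in the GFP-positive library of identifier 5780, and from 70.7 to 6.38 CPM in 61-1. In 40-1 it went from 93.4 to 34.6 CPM, and in 7907 from 585 to 114 CPM. In 7914 it went from 108 to 17.7 CPM, and in 7968 from 14.4 to 11.3 CPM, the smallest step. In 7968 the GFP-negative value stood for 1 count, below that library's floor of 43.1 CPM, so the direction there, and with it the 6 of 6, rests on 1 count. For 61-1, the other GFP-positive library of that identifier, in library set 1, had 42.1 CPM. The mean log2 difference, with 61-1 represented by its libraries of this set, was -1.91 ± 1.04 (SD, n = 6, exact sign-flip p = 0.03125, the smallest p that 6 identifiers can give), and it was the only one of 10 tests with p under 0.05. Over 6609 genes 457 had p under 0.05 in the same test (6.91%), 186 of them lower in the GFP-positive library of 6 of 6 (2.81%). Birc3 was higher in 5 of the 6 (0.38 ± 0.44, SD, exact p = 0.0938), and Nfkb1 was lower in 5 of the 6 (-0.82 ± 1.00, SD, exact p = 0.125).

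**Figure D3:**
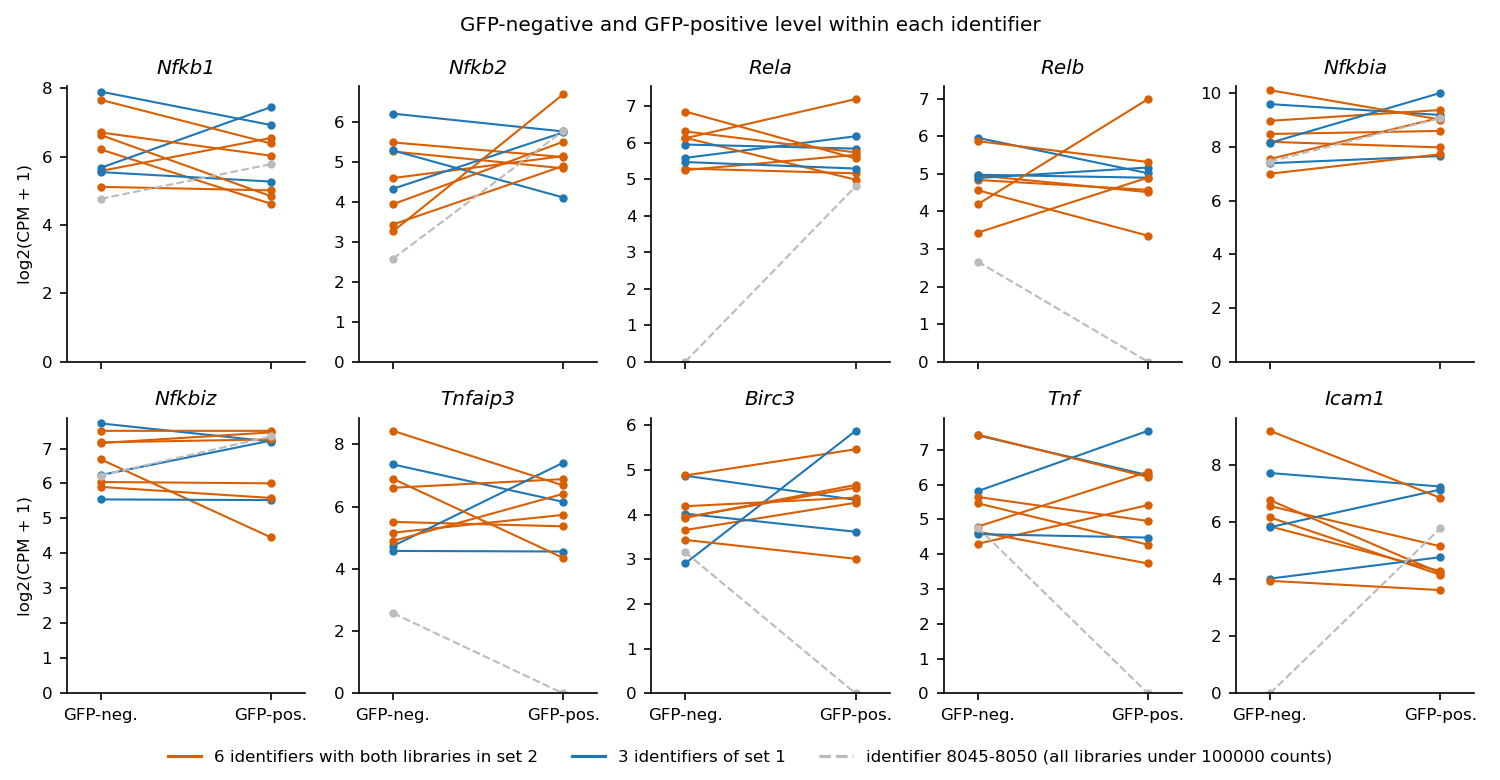
Level of each gene as log2(CPM + 1) (vertical axes) in the GFP-negative and GFP-positive libraries of each of the 10 identifiers, joined by a line. Where an identifier had more than 1 library of a population their mean is shown. Orange lines are the 6 identifiers of library set 2, blue lines 3 of library set 1, and the dashed gray line is the identifier whose libraries all hold under 100000 counts. All 6 orange lines of Icam1 fall, whereas those of the other 9 genes go both ways.

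Over the 19 libraries of at least 100000 counts, 42 of the 45 pairs had a positive Spearman rho (median 0.36, range -0.17 to 0.82). Over all pairs of 6618 genes 50.95% were positive, with a median of 0.0070. Rela was weakly related to the others, at -0.17 to 0.33. The closest pairs were Nfkbia with Nfkbiz (0.82), Nfkb1 with Tnfaip3 (0.80) and Icam1 with Nfkb1 (0.75). These libraries share identifiers, library sets and a range of depth, so the values describe them only. Ranked from the highest level, GFP-negative 1 had a median rank of 2.5 over the 10 genes and was among the top 3 libraries for 8 of them. GFP-positive 3 (median rank 3), GFP-negative 10 (4), GFP-positive 1 (5) and GFP-positive 9 (5.5) came next, and GFP-positive 5 was lowest (16). The high libraries thus came from both populations. GFP-negative 1, GFP-positive 3 and GFP-negative 10 had macrophage marker sums of 9137, 38142 and 7331 CPM, whereas GFP-positive 9 had 201 CPM. Conversely, GFP-negative 7 had a sum of 7775 CPM at a median rank of 9, and GFP-negative 9 had 5357 CPM at a median rank of 11. The part of macrophages in these levels was not tested.

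**Figure D4:**
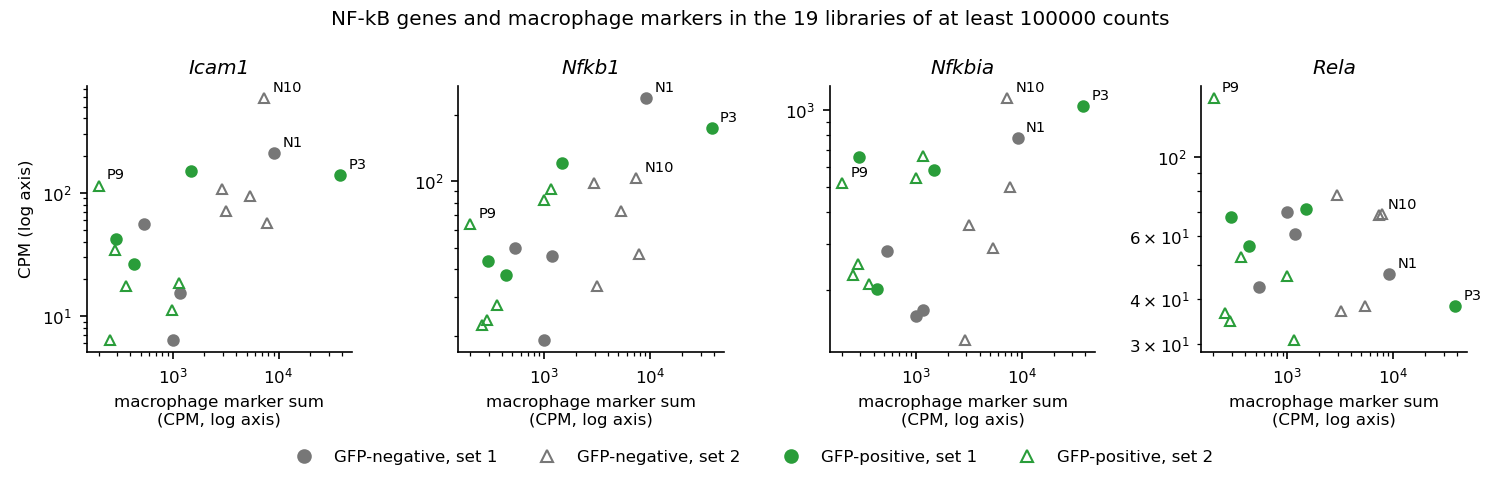
Level of Icam1, Nfkb1, Nfkbia and Rela in CPM (vertical axes, log scale) against the summed level of the 16 macrophage markers in CPM (horizontal axes, log scale) in the 19 libraries of at least 100000 counts. Gray is GFP-negative, green GFP-positive, filled circles library set 1 and open triangles library set 2, with GFP-negative 1 and 10 marked N1 and N10 and GFP-positive 3 and 9 marked P3 and P9. P3, with a sum of 38142 CPM, is among the highest for Nfkb1 and Nfkbia and among the lower ones for Rela (38.3 CPM), and P9, with 201 CPM, is the highest for Rela.

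By likeness over the same 19 libraries and 6618 genes, the genes nearest to Icam1 were Rel (0.90), Ell2 (0.89) and Noct (0.87), given with their Spearman rho. Rel encodes c-Rel, a further subunit of the family. Nearest to Nfkbiz were Cxcl2 (0.89), Fosb (0.88) and Rai14 (0.86), of which Cxcl2 is a neutrophil chemokine and Fosb an immediate early factor. Nearest to Tnfaip3 were Cebpb (0.89), Cxcl3 (0.89) and Tspan4 (0.87), of which Cxcl3 is again a chemokine. Nearest to Nfkbia were Plpbp (0.91), Dusp3 (0.90) and Lmna (0.90), and nearest to Nfkb1 were Csrnp1 (0.90), Tspan4 (0.88) and Plek (0.87). Likeness was lower for Nfkb2, whose nearest was Gnb2 (0.82), Rela with Smad7 (0.86), Relb with Aftph (0.83), Birc3 with Sult1a1 (0.81) and Tnf with Map2k3 (0.81). Each rho was picked as among the highest over all these genes, in only 19 libraries. The values therefore describe these libraries only, and no test was made of them.

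The rest of the pathway was read from 4 lists of 77 further genes, of which 46 passed the filter over all libraries. 0 of 46 were called by edgeR (background 0.0151%), and 1 of them, Tax1bp1, had an unadjusted p under 0.05. Of the receptors and adaptors 11 of 26 were tested, and 5 fold changes were positive with a median of -0.03. Of the kinases 7 of 11 were tested, with 4 positive and a median of 0.02. Of the further subunits and inhibitors 9 of 13 were tested, with 5 positive and a median of 0.21, and of the other targets 19 of 27, with 10 positive and a median of 0.04. These medians stand beside 0.07 over all genes tested. In library set 1, 13 of 15 other targets tested had positive fold changes (median 0.56, 2 with an unadjusted p under 0.05), as did 5 of 9 receptors and adaptors (0.01), 2 of 3 kinases (0.45) and 4 of 7 further subunits and inhibitors (0.29, 1 with an unadjusted p under 0.05), beside 54.11% over all genes tested, and none was called. Ikbkb, the catalytic I-kB kinase, had a log2 fold change of -0.24 (SE 0.33). Tax1bp1, an adaptor of A20, had one of 0.44 (SE 0.21, edgeR adjusted p = 0.992), and Otulin, which removes linear ubiquitin chains, one of 0.61 (SE 0.39). The TWEAK receptor Tnfrsf12a had one of 0.44 (SE 0.23), and the NF-kB and interferon target Irf1 one of 0.68 (SE 0.38). The further genes taken from these lists were Irak1 at -0.30 (SE 0.26), Cflar at -0.26 (SE 0.17) and Tab2 at 0.34 (SE 0.37).

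In library set 2, 2 of the 20 other targets tested were called lower in GFP-positive libraries, and 0 of the 13 receptors and adaptors, 7 kinases and 9 further subunits and inhibitors were called (background 1.28%). Fold changes were positive for 6 of 20 other targets (median -0.85) and 6 of 13 receptors and adaptors (-0.04). They were positive for 4 of 7 kinases (0.14) and 4 of 9 further subunits and inhibitors (-0.08). Over all genes tested in this set 56.08% were positive (median 0.07). Cd83, a surface protein of activated antigen-presenting cells, had 77.5 ± 21.3 CPM (SD, n = 6) in GFP-negative and 10.4 ± 7.46 CPM (SD, n = 6) in GFP-positive libraries. The ranges, 47.6 to 100.6 and 0 to 18.4 CPM, did not overlap, and the log2 fold change was -2.85 (SE 0.53, edgeR adjusted p = 0.00261). Vcam1, an adhesion molecule of endothelium, macrophages and fibroblasts, had 53.5 ± 28.1 CPM (SD, n = 6) in GFP-negative and 11.5 ± 9.33 CPM (SD, n = 6) in GFP-positive libraries. Here too the ranges, 29.4 to 94.7 and 1.6 to 26.8 CPM, did not overlap (log2 fold change -2.22, SE 0.55, edgeR adjusted p = 0.0335). Both genes were highest of all 23 libraries in GFP-positive 3, at 1258 CPM for Cd83 and 335 CPM for Vcam1. The macrophage, fibroblast, and smooth muscle and pericyte marker sums of library set 2 differed in the same direction, as given for Icam1, and their part was not tested. Rel had a log2 fold change of -0.66 in this set (SE 0.53, edgeR adjusted p = 0.902), and the receptor Il1r1 one of -1.46 (SE 0.70, edgeR adjusted p = 0.721). Map3k8 (-1.10, SE 0.59), Tnfrsf1a (-0.66, SE 0.44) and Ikbkb (-0.45, SE 0.45) were also negative. Otulin (0.71, SE 0.61), Tbk1 (0.68, SE 0.66), Tnfrsf12a (0.34, SE 0.29) and Tax1bp1 (0.18, SE 0.27) were positive, and none of these was called.

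Since digestion of a tumour can itself induce immediate early genes, a list of 12 dissociation and early genes was set beside the members. All 12 were tested, 8 had positive fold changes with a median of 0.14, and 0 were called by edgeR (1 had an unadjusted p under 0.05). Klf6 had a log2 fold change of 0.58 (SE 0.22, edgeR adjusted p = 0.949) and the heat shock gene Hspa1a one of -1.07 (SE 0.65, edgeR adjusted p = 0.997). The list summed to 1091 to 6832 CPM in GFP-negative and 2658 to 7111 CPM in GFP-positive libraries. In library set 1, 12 of the 12 fold changes were positive (median 0.58, 3 with an unadjusted p under 0.05), and in library set 2 3 of 12 (median -0.25, 1 with an unadjusted p under 0.05), with 0 called by edgeR in either. The 10 members had 8 of 9 and 3 of 10 positive. The part of digestion in the NF-kB values was not tested.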

How the data were processed

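Poly(A)-selected RNA of sorted cells was sequenced. The deposited values are expected counts per gene, estimated by the authors with Salmon 1.3.0 on mm10 per the submitters' processing notes, and were whole numbers already. How Salmon was set is not given in the sources. The libraries were prepared with a directional kit per the labels' protocols. Whether the counting used strand is not stated, so reads of Nfkb2 and Psd, or of Icam1 and Gm47079, which overlap on opposite strands, may not be separated, nor those of Nfkb1 and Gm43430 on one strand.

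edgeR 4.0.16 (R 4.3.3) was run on all genes: TMM factors, filterByExpr, a robust quasi-likelihood fit without covariates, and Benjamini-Hochberg adjustment at 0.05. Fold changes are GFP-positive over GFP-negative. CPM values are scaled to the library total, without TMM factors. The fit was repeated in each library set, with an interaction of group and set, and with DESeq2 1.42.0. Other alternatives changed scaling, filter, robust fitting, shallow libraries, pairing and single libraries. Identifiers joined in 1 library name were treated as 1. Floors of 3 counts cover counting error only. The fitting was also run on simulated data with large changes set in better-expressed genes. That run cannot show what the fit would find for smaller differences. All 10 members are named; from each further list the genes named are those called (at most 3), otherwise the 2 with the smallest p and the most expressed, with not all of them printed. The members, lists and rules were chosen with earlier results of these data known.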

Additional observations from a re-analysis of the deposited data

Results flagged for a closer look

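Single libraries that stood apart were looked for by Dixon's test (95% level) in each population of each library set, 40 tests for the 10 genes, of which chance would mark about 1 in 20. 14 were marked, and 12 of them fell in 3 libraries. Over 6609 genes the same test marked 12.6% of 26436 groups. GFP-negative 1 stood above the other GFP-negative libraries of set 1 for Nfkb1 (238 CPM), Nfkbia (774 CPM), Tnfaip3 (162 CPM), Tnf (169 CPM) and Icam1 (209 CPM). GFP-negative 10 stood above those of set 2 for Tnfaip3 (344 CPM), Tnf (172 CPM) and Icam1 (585 CPM). GFP-positive 9 stood above the GFP-positive libraries of set 2 for Nfkb2 (103 CPM), Rela (146 CPM), Relb (126 CPM) and Icam1 (114 CPM). The remaining marks were Birc3 in GFP-negative 5 (78.6 CPM from 2 counts) and Relb in GFP-positive 4 (0 CPM, at a depth of 37125 counts).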

How the results depend on the processing

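Over all libraries 0 of 10 members were called in each of the 35 alternative fits, the smallest adjusted p being 0.0581. The number of all genes called moved from 1 to 57 in DESeq2, to 0 with a stricter filter (at least 10 counts in 11 libraries), to 0 without GFP-positive 3 and the libraries under 100000 counts, and to between 0 and 16 when 1 library was left out (16 without GFP-positive 3). In library set 2 Icam1 alone was called without the low-count filter (1 member). None of the log2 fold changes that changed sign was called. Left-out libraries gave Nfkb1 -0.54 to 0.15, Nfkbiz -0.045 to 0.20, Rela -0.14 to 0.18, Relb -0.10 to 0.50, Tnf -0.20 to 0.56 and Tnfaip3 -0.46 to 0.23 over all libraries. They gave Nfkb1 -0.38 to 1.34, Nfkb2 -0.14 to 0.71, Relb -0.28 to 0.38 and Tnfaip3 -0.28 to 1.58 in library set 1, and in library set 2, with the left-out identifiers of the blocked fit, Nfkbia -0.27 to 0.39, Nfkbiz -0.83 to 0.0058, Rela -0.58 to 0.078, Relb -0.39 to 0.78, Tnf -0.59 to 0.43 and Tnfaip3 -0.86 to 0.056. The interaction term of Birc3 became 0.41 without GFP-positive 3. Without that library and the shallow ones the values over all libraries were Nfkbiz -0.021 and Tnf -0.24. Without the low-count filter they were Relb 0.0051 in library set 1, and Rela 0.058 and Nfkbia 0.07 in library set 2, where Rela was also 0.078 without its shallow library. The cause of these changes was not tested.

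Same-identifier libraries did not deviate together in every pair (12 pairs, correlations -0.22 to 0.40, 5 over 0.1; 11 pairs by title number, -0.17 to 0.40, 2 over 0.1). Within library set 2 the pairs of the 6 identifiers ran from 0.047 to 0.19. Shallow libraries and a pair across the library sets are among the 12, so this check cannot settle whether an identifier marks a common source. The labels do not say either, and the main fits did not take the names as pairs. With a replicate block by identifier 2 genes were called over all libraries, 89 when GFP-positive 3 was left out too, and 0 with a block by title number, no member among them. In library set 2 the block by identifier called 1 member, Icam1 (log2 fold change -2.04, edgeR adjusted p = 0.000416; 140 of 6952 genes called), and 1 again without each of the 6 identifiers in turn (-2.23 to -1.80, adjusted p 8.7e-05 to 0.0229), so its range was 0 to 1 member over all left-out libraries and identifiers. Sign changes under the block by identifier were Rela -0.027, Relb -0.063 and Nfkbiz -0.025 over all libraries and Nfkbia 0.059 in library set 2. Without GFP-positive 3 they were Rela -0.038, Relb -0.15, Nfkbiz -0.20 and Tnf -0.26, and with the block by title number Nfkbiz -0.031 and Tnfaip3 0.044.

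In the sign-flip test the number of members with p under 0.05 went from 0 to 1 without identifier 7421 (Nfkb2, 1.15, exact p = 0.0469), and to 1 (Icam1) in the 6 identifiers of library set 2. Mean log2 differences that changed sign ranged over Birc3 -0.19 to 0.49, Nfkbiz -0.19 to 0.18, Rela -0.15 to 0.53 and Relb -0.49 to 0.12 when identifiers were left out. Without the shallow identifier they were Rela -0.15 and Relb 0.12, and in library set 2 Rela -0.35 and Relb 0.25. The settings without GFP-positive 3 plus shallow libraries or plus a block, the blocked fits without 1 identifier and the 6-identifier test were chosen after seeing the data. Depth limits all of this: 4 libraries held under 100000 counts.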
